A study of Drosophila melanogaster with 3 samples.

Results

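The tRNA genes of Drosophila melanogaster were examined for binding of the CG1602 fusion protein in embryos. A gene was a member when its symbol in the dm6 annotation starts with tRNA: and it lies on a main chromosome arm. This gave 295 genes of 17952 annotated genes, of which 5 are annotated as pseudogenes. They lie on 2L (41 genes), 2R (100), 3L (49), 3R (79) and X (26). A gene was counted as holding a peak when the summit of the peak lay within 500 bp of the gene start on either side. The members carry the genes of 22 isotype labels, from 26 arginine genes to 1 selenocysteine gene.

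tRNA genes are transcribed by RNA polymerase III, not by the polymerase that makes messenger RNA. Their promoter lies inside the transcribed gene and consists of an A box and a B box, which the factor TFIIIC recognises. TFIIIC then places TFIIIB, with its subunits Brf and Bdp1, just upstream of the start, and TFIIIB recruits the polymerase. In flies the TBP-related factor Trf takes the place of TBP in TFIIIB. Flies hold many tRNA genes as identical copies, often in clusters and often close to protein-coding genes.

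The data are 3 biological replicates of ChIP-seq with an anti-GFP antibody on mixed-sex embryos aged 0 to 24 h. All replicates come from 1 fly strain, CG1602-GFP, in which CG1602 is fused to eGFP. There is no second condition, and the 3 replicates share 1 control. Whole embryos were used, so binding in few cells and weak binding in many cells cannot be told apart. The authors deposited a list of regions for each replicate (17580, 27164 and 18386 regions), a list from the pooled replicates (16640) and a list filtered by irreproducible discovery rate (IDR, 4599 peaks). IDR asks how alike peaks rank in the replicates. The pooled and replicate lists hold background as well as peaks. The signal of a region is the authors' value on a scale that is not given, so it was used for ranks within a list and not between lists. The last IDR peak had a signal of 108.158 and the next pooled region 108.153, so the IDR list is the top of the pooled ranking. Read depth is unknown here.

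To show the internal promoters, the sequences of the 3 single-copy genes with an IDR summit and of the Asp pair that shares 1 IDR peak are printed from RefSeq for dm6, each 5′ to 3′ along the gene. Capitals mark the A box (first) and the B box (second) as found by pattern. The Asp genes lie at chr2L:8541552-8541623 on the minus strand and chr2L:8541761-8541832 on the plus strand. The others lie at chr3R:8669081-8669174 (Tyr, minus strand), chr3R:24112964-24113047 (Leu, plus strand) and chrX:3427452-3427523 (Gln, minus strand).
tRNA:Asp-GTC-1-4: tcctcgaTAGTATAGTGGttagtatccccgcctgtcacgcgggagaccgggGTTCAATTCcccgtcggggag
tRNA:Asp-GTC-1-5: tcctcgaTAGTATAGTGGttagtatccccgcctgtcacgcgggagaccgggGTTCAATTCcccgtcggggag
tRNA:Tyr-GTA-1-8: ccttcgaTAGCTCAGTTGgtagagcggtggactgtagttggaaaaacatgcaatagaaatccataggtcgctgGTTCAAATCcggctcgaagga
tRNA:Leu-TAA-2-1: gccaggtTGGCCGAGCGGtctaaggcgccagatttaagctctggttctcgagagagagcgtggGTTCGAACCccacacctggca
tRNA:Gln-TTG-2-1: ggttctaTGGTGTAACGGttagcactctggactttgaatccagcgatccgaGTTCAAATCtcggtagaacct
The Asp pair is identical in sequence, and the tyrosine gene carries extra bases between the boxes, where tyrosine tRNA genes hold an intron. Over all members the A box pattern was found in 272 genes (92.2%), with a median first base of 8. The B box as GTTCGANNC was found in 162 genes (54.9%), and in a looser form that accepts an alternative base at 2 positions in 292 genes (98.98%), with a median first base of 53.

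Few tRNA genes held a strong peak. An IDR summit lay within 500 bp of 11 of 295 tRNA genes (3.73%, 95% Clopper-Pearson interval 1.88 to 6.57%), at 9 peaks. Over all annotated genes the share was 15.4%, and over protein-coding genes it was 18.3%. A pooled summit lay near 70 tRNA genes (23.7%, interval 18.99 to 29.004%), at 54 regions, against 33.2% of all genes and 37.7% of protein-coding genes. Pooled regions that overlapped a region in both replicates 1 and 3 lay near 27 tRNA genes, and those with a region in both 1 and 2 near 31, so the pooled count rests in part on replicates 2 and 3. The intervals cover counting error over genes only, and neighbouring tRNA genes can share a peak. Among other short or non-coding genes, the IDR share was 5.72% of 3289 ncRNA genes and 4.09% of 269 snoRNA genes, and the pooled share was 17.5% and 16.4%. The 32 snRNA genes had shares of 15.6% (interval 5.28 to 32.8%) and 28.1% (13.7 to 46.7%). The IDR share of tRNA genes was thus the lowest of these 4 classes, near that of snoRNA genes, while the pooled share lay above those of ncRNA and snoRNA genes and below that of snRNA genes. No test was made, since genes are not replicates of the 1 group.

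Strong peaks near tRNA genes had their summits beside the genes, not in them. None of the 9 IDR summits lay inside a tRNA gene or within 100 bp of a tRNA start. The peaks at tRNA:His-GTG-1-3 and tRNA:Phe-GAA-1-2 nevertheless reached into the tRNA gene with their edge, and the peak at tRNA:Thr-AGT-1-4 covered the whole tRNA gene. The distances of the 9 summits to the 11 starts ran from 114 bp at tRNA:Thr-AGT-1-4 to 456 bp at tRNA:Gly-GCC-1-9. Of the summits, 6 lay upstream and 3 downstream of the nearest tRNA start. All 9 peaks overlapped a region in each of the 3 replicate lists, as did 99.7% of all 4599 IDR peaks. Of the 9 peaks, 7 had a protein-coding transcription start site (TSS) within 500 bp, against 2161 of all 4599 IDR peaks (46.99%). In each of the 7 the summit lay upstream of that TSS, as it did in 86.8% of the 2161. At 4 of the 9 the protein-coding TSS was nearer to the summit than the tRNA start was. In the order of their signal the 9 peaks are described next, those with a printed summit sequence first.

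The strongest peak lay 195 bp upstream of tRNA:Tyr-GTA-1-8, a single-copy gene for a tRNA that carries tyrosine, in an intron shared by CG8036 and p. It had a signal of 666.2 and rank 213 in the pooled list, and ranks of 237, 193 and 236 in replicates 1, 2 and 3. Its summit lay 249 bp upstream of the nearest CG8036 TSS. The second, at tRNA:Gln-TTG-2-1, a single-copy glutamine gene, had a signal of 365.3 and rank 752, and ranks of 815, 601 and 721 in the replicates. Its summit lay 218 bp upstream of the tRNA start, within introns of CG12535 and lncRNA:CR44999, and the nearest protein-coding TSS, that of CG14269, was 8066 bp away. This is the strongest of the 9 peaks that has no protein-coding TSS nearby. The third had a signal of 281.7 and rank 1204, with replicate ranks of 1080, 1568 and 1179. It lay 298 bp downstream of the start of tRNA:Asp-GTC-1-5 and 436 bp upstream of that of tRNA:Asp-GTC-1-4, which point away from each other. Its summit was 88 bp upstream of a TSS of Sema1a, which encodes a transmembrane semaphorin of axon guidance. The peak thus counts for 2 tRNA genes while it is nearest to a protein-coding start.

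The peak 249 bp downstream of the start of tRNA:Phe-GAA-1-2, a phenylalanine gene, had a signal of 237.9 and rank 1599. Its replicate ranks were 3195, 1470 and 1173, with replicate 1 the lowest-ranked. The summit was 56 bp upstream of the TSS of RpL17, which encodes a protein of the large ribosomal subunit. The peak 217 bp upstream of tRNA:Leu-TAA-2-1, a single-copy leucine gene, had a signal of 139.5 and rank 3371, with replicate ranks of 4385, 3668 and 3052. Its nearest protein-coding TSS was that of CG13605, 358 bp away. The peak of tRNA:Thr-AGT-1-4, a threonine gene in an intron of CG31279, had a signal of 108.9 and rank 4555, close to the end of the IDR list. It ranked 5551 and 5621 in replicates 1 and 2, beyond the length of the IDR list, and 3231 in replicate 3.

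The reference sequences around these 6 summits are shown because the summits of these strong peaks lie outside the tRNA genes. Each holds 121 bases of the dm6 plus strand from RefSeq, at chr3R:8669309-8669429 (Tyr), chrX:3427681-3427801 (Gln), chr2L:8541999-8542119 (Asp), chrX:6744234-6744354 (Phe), chr3R:24112687-24112807 (Leu) and chr3R:16431766-16431886 (Thr). Capitals mark the 11 bases centred on the summit.
tRNA:Tyr-GTA-1-8 peak: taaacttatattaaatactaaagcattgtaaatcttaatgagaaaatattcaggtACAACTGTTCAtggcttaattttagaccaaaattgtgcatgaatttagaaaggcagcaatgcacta
tRNA:Gln-TTG-2-1 peak: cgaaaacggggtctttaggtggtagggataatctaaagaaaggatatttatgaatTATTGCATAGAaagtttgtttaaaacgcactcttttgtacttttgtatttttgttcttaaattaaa
tRNA:Asp-GTC-1-5 peak: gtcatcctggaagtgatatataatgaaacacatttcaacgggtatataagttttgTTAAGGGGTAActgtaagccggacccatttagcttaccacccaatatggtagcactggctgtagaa
tRNA:Phe-GAA-1-2 peak: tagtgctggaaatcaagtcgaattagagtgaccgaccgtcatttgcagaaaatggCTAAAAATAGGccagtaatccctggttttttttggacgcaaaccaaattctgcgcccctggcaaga
tRNA:Leu-TAA-2-1 peak: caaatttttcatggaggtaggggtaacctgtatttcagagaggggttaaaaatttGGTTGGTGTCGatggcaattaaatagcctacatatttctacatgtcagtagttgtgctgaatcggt
tRNA:Thr-AGT-1-4 peak: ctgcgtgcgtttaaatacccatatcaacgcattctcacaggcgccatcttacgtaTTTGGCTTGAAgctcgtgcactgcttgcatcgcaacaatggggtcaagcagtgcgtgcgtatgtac
None of the 6 holds an A box or B box pattern within 100 bp of the summit, on either strand. Over all 9 IDR peaks near tRNA genes, 2 held a B box there (22.2%), against 1.52% of all IDR summits. These 2 were the peaks of tRNA:His-GTG-1-3 and tRNA:Trp-CCA-2-2, whose summit sequences are not printed. An A box was found at 0 of the 9. The median GC content of the 201 bases around the summit was 37.3% for the 9 IDR peaks near tRNA genes and 33.3% for all IDR peaks.

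The other 3 IDR peaks lie on arm 2R. The peak 154 bp upstream of tRNA:His-GTG-1-3, a histidine gene, had a signal of 260.7 and rank 1374, with replicate ranks of 1649, 1351 and 1295. Its summit (12335220) was 96 bp upstream of a CG8490 TSS. The peak at tRNA:Glu-TTC-1-5, a glutamate gene, had its summit (19727201) 330 bp downstream of the tRNA start. It had a signal of 165.2 and rank 2699, and ranked 5237 in replicate 1 but 1903 and 2202 in replicates 2 and 3. The nearest protein-coding TSS was 13125 bp away, at CG8517, whereas a small nucleolar RNA gene lay 49 bp from the summit. The peak 217 bp upstream of tRNA:Trp-CCA-2-2, a tryptophan gene, and 456 bp from the start of tRNA:Gly-GCC-1-9, a glycine gene that points towards it, had a signal of 155.9 and rank 2913, with replicate ranks of 3210, 4323 and 2677. Its summit (18639340) lay 70 bp upstream of a CG30122 TSS. Replicate 1 gave the lowest of the 3 ranks at the tyrosine, glutamine, histidine, phenylalanine, glutamate and leucine peaks. At the aspartate, tryptophan and threonine peaks replicate 2 did.

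**Figure D1:**
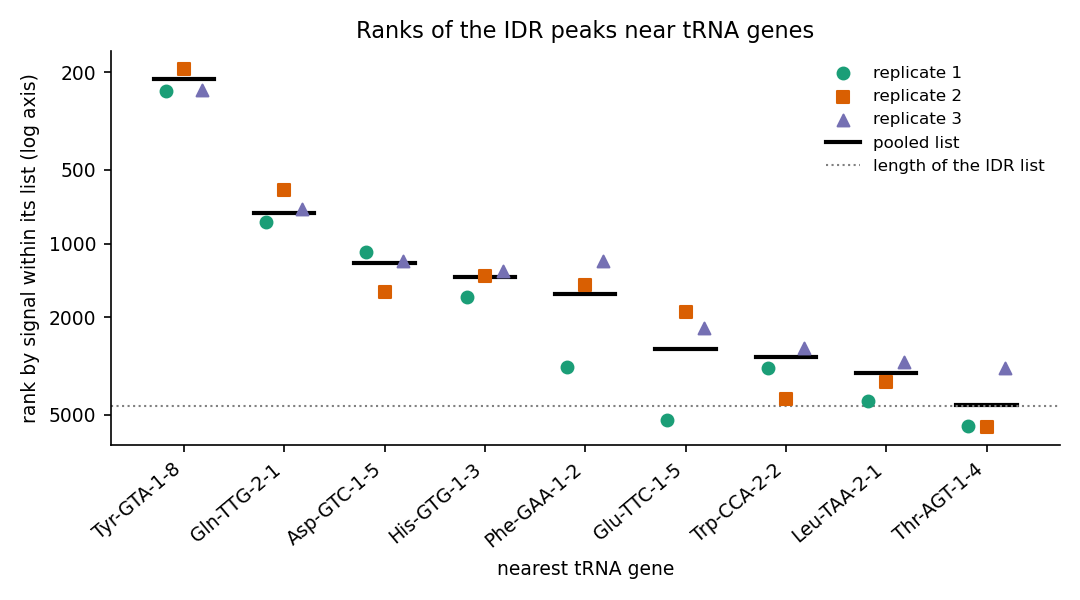
The vertical axis (log scale, strongest at the top) gives the rank by signal of the 9 IDR peaks near tRNA genes, named on the horizontal axis by their nearest tRNA gene, in the pooled list (black bar) and in each replicate list (points). The tyrosine peak keeps ranks of 193 to 237 in the 3 replicates, while the glutamate peak (replicate 1) and the threonine peak (replicates 1 and 2) fall beyond the 4599 ranks that the dotted line marks.

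When each replicate list was cut to its 4599 top-ranked regions, 11, 16 and 13 tRNA genes held a summit in replicates 1, 2 and 3. In all 3 cut lists, 9 tRNA genes held one, each of them a gene with an IDR summit. The genes with an IDR summit that were not among these 9 were tRNA:Glu-TTC-1-5 and tRNA:Thr-AGT-1-4. In the whole lists, which differ in length, 55, 129 and 77 tRNA genes held a summit, and 27 did so in all 3. Replicate 2, with the longest list, reached the most tRNA genes.

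Upstream of tRNA starts summits were fewer than upstream of protein-coding starts. In the pooled list, protein-coding genes had 11.2 summits per 100 genes in the 100 bp that begin 200 bp upstream of the start and 10.3 in the next 100 bp, and 3.47 just downstream. The tRNA genes had 2.37, 1.02 and 3.05 in the same bins, against a genome mean of 1.24 in 100 bp. Farther upstream, from 300 to 200 bp, tRNA genes had 4.07 and protein-coding genes 6.59. From 0 to 300 bp downstream tRNA genes had 3.05 in each bin, and from 300 to 400 bp they had 4.75, a count of 14 summits, where protein-coding genes had 0.931. Among IDR summits, tRNA genes had 0 in the 300 bp from 100 bp upstream to 200 bp downstream, against a genome mean of 0.344 per 100 genes in 100 bp. Over 295 genes that mean comes to about 1 summit in each of the 3 bins, so the counts are small. The 2 bins from 300 to 100 bp upstream held 3 IDR summits each, or 1.02 per 100 genes, above that mean and below the 3.22 and 6.64 of protein-coding genes.

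Copies limit what can be read on the tRNA genes themselves. Of the 295 genes, 238 have another gene of identical sequence, and their sequences reduce to 100 distinct ones, the largest family being 13 glycine genes that include tRNA:Gly-GCC-1-1. The share of 50-base words that occur once in the genome was 72.5% in the first 100 bp from tRNA starts, against 97.9% in the 100 bp before. That bin also holds words that reach beyond the gene. Among words wholly inside the gene the median share was 0%. No such word was unique in 238 of the 295 genes, and in 8 of the 11 with an IDR summit. Within 500 bp of the start the median was 95.9%. Of the 263 genes with at least 90% unique words in this window, 11 held an IDR summit (4.18%) and 69 a pooled summit (26.2%). Of the other 32 genes, 0 held an IDR summit and only tRNA:Ile-AAT-1-9 held a pooled one. How the aligner treated reads with several matches is not given in the sources used here, and its part in these counts was not tested.

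**Figure D2:**
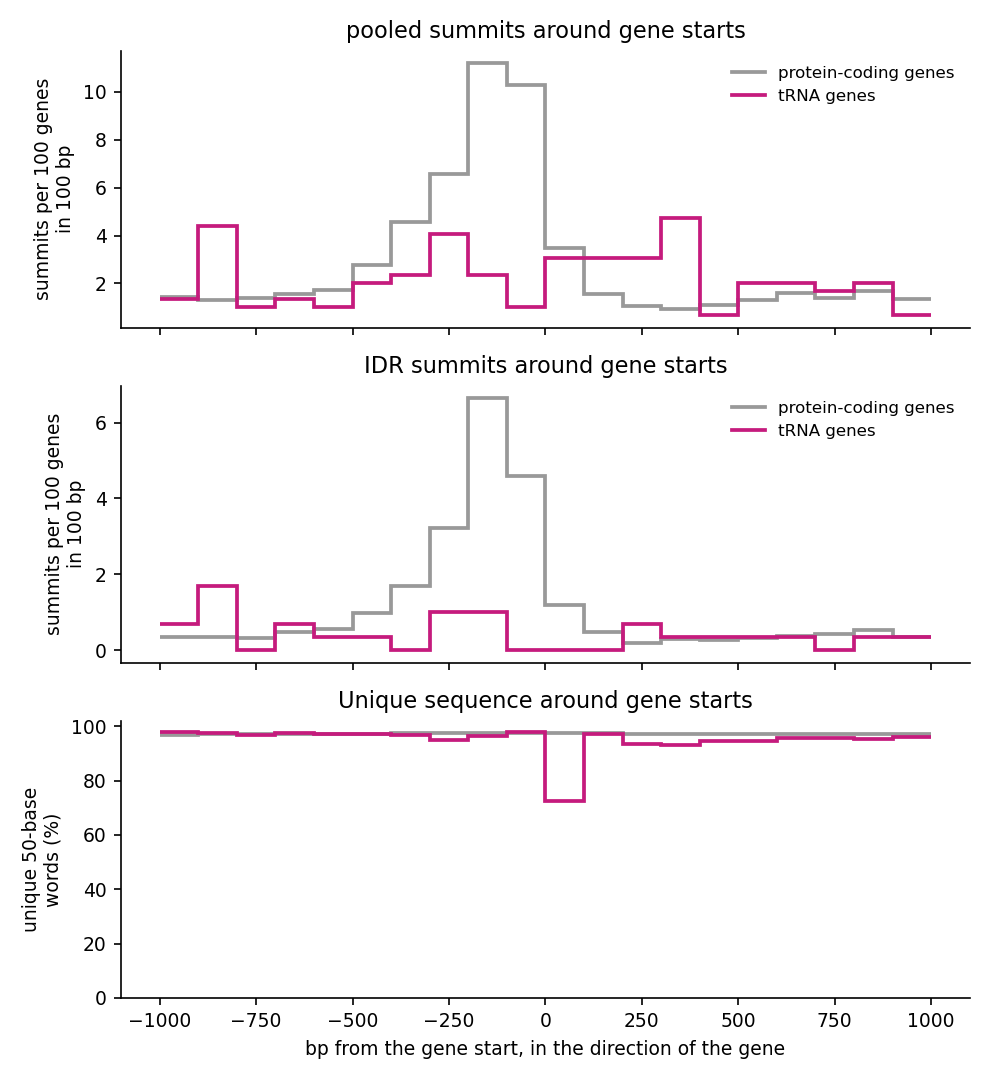
Summits per 100 genes in 100-bp bins around gene starts, for the pooled list (top) and the IDR list (middle), with the percentage of 50-base words that are unique in the genome (bottom), for tRNA genes (n = 295) and protein-coding genes (n = 13968). Protein-coding genes peak at 11.2 pooled summits in the bin from -200 to -100 bp, where tRNA genes have 2.37. Unique sequence dips to 72.5% in the first 100 bp from tRNA starts, a bin that includes words reaching beyond the gene.

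A nearby protein-coding start went with most of the IDR peaks. Of the 33 tRNA genes with a protein-coding TSS within 500 bp, 8 held an IDR summit (24.2%) and 13 a pooled summit (39.4%). Of the 262 with none so near, 3 held an IDR summit (1.15%) and 57 a pooled one (21.8%). The 3 were tRNA:Gln-TTG-2-1, tRNA:Glu-TTC-1-5 and tRNA:Asp-GTC-1-4, whose nearest protein-coding TSS, of Sema1a, lay 524 bp away. Other non-coding genes (ncRNA, snoRNA and snRNA) had an IDR summit in 67 of 579 cases (11.6%) with such a TSS and in 137 of 3011 (4.55%) without. Their pooled shares were 32.3% and 14.6%. By these counts tRNA genes were above the other non-coding genes in 3 of the 4 shares and below them in the IDR share far from a protein-coding TSS. The shares near a protein-coding TSS rest on only 33 tRNA genes, some of which share a peak. No interval was made for these shares and the differences were not tested. The median distance from the tRNA start to the nearest protein-coding TSS was 386 bp for the 11 genes with an IDR summit, 2348 bp for the 59 with a pooled summit only and 3154 bp for the 225 with none.

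**Figure D3:**
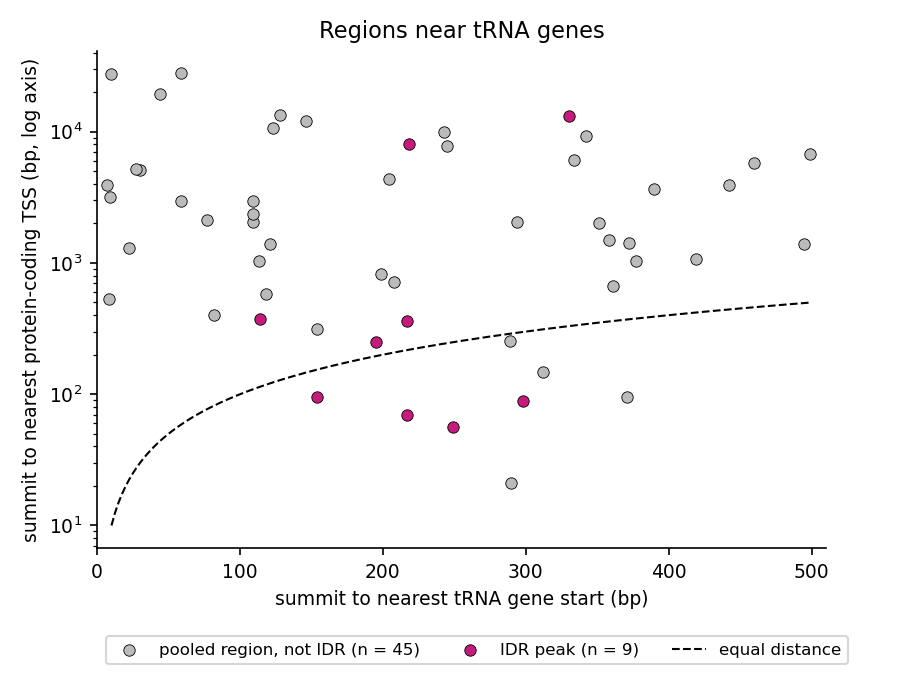
Each point is 1 of the 54 pooled regions near tRNA genes, with the distance from its summit to the nearest tRNA start (horizontal, bp) and to the nearest protein-coding TSS (vertical, bp, log axis); the dashed line marks equal distances. Of the 9 IDR peaks, 4 lie under the line and 7 lie within 500 bp of a protein-coding TSS, while 28 of all 54 regions lie more than 2000 bp from one.

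The 45 pooled regions near tRNA genes outside the IDR list were mostly far from protein-coding starts, as were many such regions elsewhere. A protein-coding TSS was nearer to the summit in 4 of them (tud, Bx and ATP8A, the last in 2 regions), and 26 (57.8%) lay more than 2000 bp from any, against 50.2% of all 12041 pooled regions outside the IDR list. Within 500 bp of one lay 6 of the 45 (13.3%), against 26.999% of the 12041. The gene tud encodes the Tudor protein of the germ plasm, and Bx a LIM-only protein. The summit lay inside a tRNA gene in 9 of the 45, and within 100 bp of a tRNA start in 12. Their signal ran from 41.4 to 103.8, with a median of 54.3, against 53.8 for the 12041. Only 11 of the 45 (24.4%) overlapped a region in every replicate, against 43.7% of those 12041.

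The 10 strongest tRNA genes by a pooled region outside the IDR list were led by tRNA:Val-CAC-1-1, a valine gene, with a signal of 103.8 and rank 4839. Its replicate ranks were 10768, 3137 and 3794, so replicate 1 stood apart. tRNA:Ile-AAT-1-8 followed with a signal of 102.1 and replicate ranks of 6380, 4056 and 5973, and tRNA:Cys-GCA-1-3 had 84.0 and ranks of 6754, 4166 and 8788. At tRNA:Ile-AAT-1-9 (99.6) the overlapping replicate regions had their summits 237, 191 and 239 bp from the pooled summit, so their ranks describe a neighbouring summit. The region of tRNA:Cys-GCA-1-3 also lay within 500 bp of tRNA:Cys-GCA-1-2 and tRNA:Lys-CTT-1-12, so 3 of the 10 genes share it. The others were tRNA:Gly-GCC-1-2 (81.7), tRNA:Gly-TCC-2-2 (76.3), and tRNA:Gly-GCC-1-13 with tRNA:Trp-CCA-2-6, which share a region (73.0).

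The 9 regions with a summit inside a tRNA gene had signals of 47.9 to 60.8 and pooled ranks of 9010 to 12657. They were at tRNA:Lys-CTT-1-1, tRNA:Glu-CTC-3-9, tRNA:Phe-GAA-1-3, tRNA:Asn-GTT-1-2, tRNA:Phe-GAA-1-5, tRNA:Leu-CAG-1-6, tRNA:Ala-AGC-2-7, tRNA:Ala-AGC-2-1 and tRNA:Thr-AGT-1-7. Replicate 1 held 1 of them (tRNA:Asn-GTT-1-2), replicate 2 held 8 and replicate 3 held 6, and none was in all 3 lists. All 9 thus ranked in the weaker part of the pooled list, where the lists hold background as well as peaks.

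Motifs were searched on both strands within 100 bp of each summit, and the A and B boxes can both lie in 1 tRNA gene. The looser B box was found at 20 of the 54 pooled summits near tRNA genes (37.04%), against 5.61% of all pooled summits and 5.33% of all IDR summits. The A box was found at 15 (27.8%) against 14.4% of all pooled summits. Windows that reach a tRNA gene hold these boxes by position, so the shares depend in part on how near the summits were. Some boxes lay in windows that reach no tRNA gene, such as the B box at the tRNA:Trp-CCA-2-2 peak and the A box at tRNA:Lys-TTT-1-1. The 8-base DNA replication-related element (DRE), TATCGATA, lay at 3 of the 54 (5.56%), against 2.71% of all pooled summits, and at 1 of the 9 IDR peaks, that of tRNA:Trp-CCA-2-2. The word CACTGAGA, present at 2.88% of all pooled and 4.09% of all IDR summits, lay at 0 of the 54 and thus at none of the 9, numbers too small to set apart from those shares.

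By isotype, the 11 genes with an IDR summit comprised 2 of 14 aspartate genes and 1 gene each for leucine, glutamate, glycine, threonine, glutamine, tyrosine, phenylalanine, tryptophan and histidine. Pooled summits, held by 23.7% of all tRNA genes, varied by isotype in small counts. None of the 20 serine genes and none of the 6 elongator methionine genes held one, whereas 4 of 6 initiator methionine genes did (tRNA:iMet-CAT-1-1, tRNA:iMet-CAT-1-2, tRNA:iMet-CAT-1-4 and tRNA:iMet-CAT-1-5). These 4 rest on the regions of rank 13981, shared with tRNA:Glu-TTC-1-4, and rank 9258. Neither region was in all 3 replicate lists. Arginine, the largest isotype, had 3 of 26 (tRNA:Arg-ACG-1-1, tRNA:Arg-CCT-1-2 and tRNA:Arg-CCT-1-3). Phenylalanine had 4 of 8, namely tRNA:Phe-GAA-1-2 and, outside the IDR list, tRNA:Phe-GAA-1-3, tRNA:Phe-GAA-1-4 and tRNA:Phe-GAA-1-5. Valine had 1 of 15, tRNA:Val-CAC-1-1. Genes of 1 isotype often share a cluster and 1 region, so these counts are not independent.

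**Figure D4:**
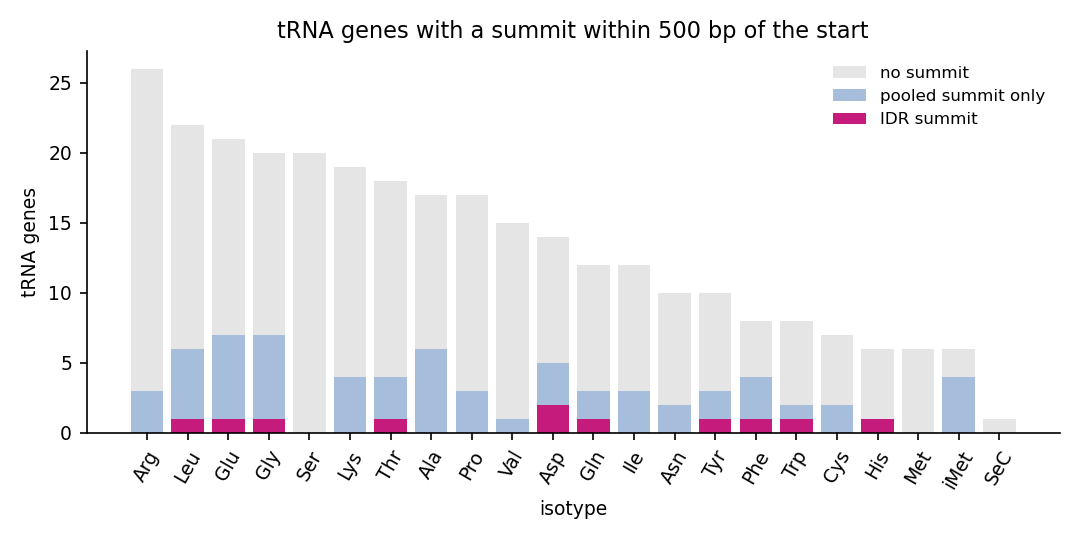
Bars give the number of tRNA genes of each isotype (horizontal axis, SeC for selenocysteine and iMet for initiator methionine), split into genes with an IDR summit, with a pooled summit only and with none within 500 bp of the start. Aspartate is the only isotype with 2 genes holding an IDR summit, and serine, with 20 genes, has no summit in either list.

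Genes closer than 5000 bp to the next were taken as a cluster, which gave 146 clusters, 77 of them single genes. An IDR summit lay at 4 of the 77 single genes, at 3 of 58 clusters of 2 to 4 genes and at 2 of 11 clusters of 5 or more genes. A pooled summit lay at 16, 21 and 8 of them. The 5 largest clusters differed in what they held. The cluster of 11 arginine, asparagine, isoleucine and lysine genes on 2R (6161535 to 6171759) had no summit in either list. The cluster of 11 alanine, proline, threonine and valine genes on 3R (17617761 to 17631750) had pooled summits at 2 genes, tRNA:Val-CAC-1-1 and tRNA:Pro-TGG-1-1. The cluster of 8 glutamate and initiator methionine genes on 2R (19725620 to 19729353) held the IDR peak of tRNA:Glu-TTC-1-5 and pooled summits at 4 genes. The 7 isoleucine and leucine genes on 2R (13430282 to 13432794) had 1 gene with a pooled summit, tRNA:Ile-AAT-1-3. The 7 arginine and serine genes on X (14014814 to 14017284) had none. Of these 5 clusters, only the glutamate and initiator methionine cluster held an IDR peak. By position, 157 tRNA genes are intergenic, 8 of them with an IDR summit, and 131 lie in introns, 3 of them with one. On 3L none of the 49 tRNA genes held an IDR summit, where 3.73% of all tRNA genes did. There 11 (22.4%) held a pooled one, near the 23.7% of all tRNA genes, so these counts do not set 3L apart.

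Identical copies were compared within the families of the genes with an IDR summit. The 12 identical aspartate genes that include tRNA:Asp-GTC-1-4 lie on 3 arms, and the 2 with an IDR summit are neighbours that share 1 peak. None of the other 4 copies of tRNA:His-GTG-1-3, 7 of tRNA:Phe-GAA-1-2, 12 of tRNA:Gly-GCC-1-9, 6 of tRNA:Thr-AGT-1-4, 5 of tRNA:Glu-TTC-1-5 and 5 of tRNA:Trp-CCA-2-2 held one, 39 copies in all, where 3.73% of all tRNA genes did. Pooled summits were found at 4 other copies of tRNA:Gly-GCC-1-9, at 3 each of tRNA:Phe-GAA-1-2 and tRNA:Glu-TTC-1-5, at 2 of tRNA:Thr-AGT-1-4, at 1 of tRNA:Trp-CCA-2-2 and at 0 of tRNA:His-GTG-1-3. Each gene of the aspartate pair had 4 other copies with a pooled summit, its partner included.

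Genes linked to RNA polymerase III or to tRNA processing held strong peaks more often than the tRNA genes did. Of 22 protein-coding genes for RNA polymerase III, its factors and tRNA processing, 7 held an IDR summit (31.8%, interval 13.9 to 54.9%). A pooled summit lay at 14 (63.6%, interval 40.7 to 82.8%). Over all protein-coding genes the shares were 18.3% and 37.7%. The first interval includes the 18.3%, while the second lies above the 37.7%. The TFIIIB subunit genes Bdp1 (signal 1059.8, rank 64) and Brf (768.1, rank 152) led, with summits at -96 and -164 bp from their starts. Others were the polymerase subunit gene Polr3E (468.1), l(2)37Cd (206.2), La (180.4), whose protein binds new polymerase III transcripts, and Pbp95 (113.3). No pooled summit lay near Trf, Tbp, the repressor gene Maf1, Rpp30, Polr3A, Polr3C, Polr3I or Polr3K. Of 32 aminoacyl-tRNA synthetase genes, whose enzymes charge tRNAs, 10 held an IDR summit (31.3%, interval 16.1 to 50.01%). A pooled one lay at 16 (50%, interval 31.9 to 68.1%). These intervals include the 18.3% and the 37.7% of all protein-coding genes. The 32 include mitochondrial enzymes (names ending in -m), of which ProRS-m, CysRS-m and ArgRS-m held an IDR summit. SerRS (677.9), IleRS (634.9), ThrRS (393.6) and AsnRS (245.7) had the strongest. Among these amino acids, threonine also had a tRNA gene with an IDR summit. Isoleucine and asparagine had tRNA genes with pooled summits only, and serine had none in the pooled list. A link between synthetase and tRNA genes was not tested.

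Of 106 other genes made by RNA polymerase III, few could be assessed. None of the 96 5S rRNA genes held a summit, but their windows hold no unique 50-base word at the median, so they could not be assessed. Of the 10 remaining genes, 2 held an IDR summit (20%) and 4 a pooled summit (40%), against 15.4% and 33.2% of all annotated genes, with intervals of 2.52 to 55.6% and 12.2 to 73.8%. The genes snRNA:U6:96Ab and snRNA:U6:96Ac, which encode the U6 spliceosomal RNA, shared 1 IDR peak (signal 220.5, rank 1803), with its summit at -106 bp from the start of snRNA:U6:96Ac. In the pooled list snRNA:7SKa (98.6) and RNaseMRP:RNA (52.2) also held a summit.

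The members just inside and outside the limit of 500 bp had ordinary signals. In the IDR list the outermost inside were tRNA:Gly-GCC-1-9 at 456 bp and tRNA:Asp-GTC-1-4 at 436 bp. The first outside were tRNA:Val-CAC-2-5 at 514 bp (signal 164.8) and tRNA:Leu-CAA-2-2 at 594 bp (149.8). In the pooled list tRNA:Gly-GCC-1-4 lay inside at 499 bp (56.0) and tRNA:Cys-GCA-1-1 outside at 509 bp (84.0).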

How the data were processed

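Per the labels, chromatin of whole embryos was sonicated to 200 to 800 and precipitated with an anti-GFP antibody. The deposited signal per region is the authors' own; per the file headers each list was made against 1 shared control. The sources used here do not give the aligner, peak caller, IDR threshold or signal scale. Lists for dm3 were not used. Genes came from Ensembl release 115 on the dm6 assembly, sequences from RefSeq for dm6; all annotated TSS of protein-coding genes were used. Overlap meant at least 1 bp. Members, lists, motifs (DRE and CACTGAGA from an earlier account of these data) and alternatives were chosen with earlier results of these data known. Named were genes with an IDR summit, the 10 strongest outside it, the 5 largest clusters, the nearest protein-coding genes and genes behind counts of 5 or fewer. Of the polymerase III list, 1 name was not matched and the values of 1 gene are not reported here. Counting and unique words were tested on simulated data. Counting used pandas 2.3.3 and numpy 2.4.6 in Python 3.11.15, intervals scipy 1.17.1 and plots matplotlib 3.10.9.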

Additional observations from a re-analysis of the deposited data

How the results depend on the processing

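Of 82 alternative values, 53 stayed within 1.5 times of the reported count and 29 moved further. Near tRNA genes, 11 genes with an IDR summit became 7 within 250 bp, 24 within 1000 bp and 6 among IDR peaks at or above the median signal (the stronger part); the 9 peaks became 18 within 1000 bp and 5 in the stronger part, as did the 9 clusters (5). Of these peaks, 4 had a nearer protein-coding TSS, which became 8 within 1000 bp. For the pooled list, 70 genes became 41, 106, 24 and 23 (250 bp, 1000 bp, stronger part, regions in all 3 replicate lists), and 54 regions became 34, 85, 20 and 20. Those with a nearer protein-coding TSS (8) became 3, 21, 5 and 5, and 5 with 1 TSS per gene. The 45 clusters became 18 in the stronger part and 17 in all 3 lists. Leaving out 1 replicate, that is asking for a region in the other 2 lists, gave 9 to 10 genes, 7 to 8 peaks, 4 to 4 with a nearer protein-coding TSS and 7 to 8 clusters for the IDR list. It gave 27 to 48 genes, 23 to 37 regions, 5 to 7 with a nearer protein-coding TSS and 20 to 33 clusters for the pooled list; the lowest came without replicate 2, and 31 genes, 26 regions and 21 clusters were left without replicate 3. Leaving out pseudogenes, or genes with under 90% unique words, both chosen after seeing the data, moved no count by more than 1. No paired analysis was possible because there is 1 group. The unknown depth, the unknown IDR threshold and repeated gene bodies limit the counts on the genes themselves.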

Other observations

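Outside the window of 500 bp, the bin from 900 to 800 bp upstream of tRNA starts held 13 pooled summits (4.41 per 100 genes), each a different one, against 3 in the next bin towards the start. The genome mean was 1.24, and protein-coding genes had 1.30 per 100 genes in the bin from 900 to 800 bp. The bin was singled out after its values were seen. IDR peaks make up 27.6% of all pooled regions. Of the 13, 5 were IDR peaks, at tRNA:Val-TAC-1-1 (signal 457.4), tRNA:Glu-CTC-3-1 (190.4), tRNA:Met-CAT-1-1 (170.3), tRNA:Gly-GCC-1-6 (162.9) and tRNA:iMet-CAT-2-1 (112.4). A protein-coding TSS lay within 500 bp of the summit at the first (lama, 196 bp) and at the methionine gene (CG34228, 95 bp), and 2108 to 8406 bp away at the other 3.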
